A study of Mus musculus with 9 samples.

Results

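The transcripts described here are long RNAs whose introns carry the genes of small nucleolar RNAs (snoRNAs): Gas5, Snhg1, Snhg3, Snhg5, Snhg6, Snhg8, Snhg12 and Zfas1. They were chosen by name from the expression table of a mouse study of bone marrow, which lists 38215 genes. Of the 8 names, 3 stand in the table as symbols (Gas5, Snhg3 and Snhg12). A further 2 were found by their Ensembl identifier (Zfas1 as 1500012F01Rik and Snhg5 as CT025673.1), and 1 by its coordinates (Snhg1 as AC025794.1, whose interval covers 99.3% of the GENCODE M21 gene on the same strand). Snhg6 and Snhg8 were matched by none of these and are not analysed here. All 6 that were found passed the filter on low counts, which left 14944 genes.

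RNA came from 9 C57BL/6J mice, all with the Jak2V617F genotype and all given tamoxifen. In 5 of them the title adds EV, an abbreviation that the labels do not spell out. In the other 4 the genotype is Jak2V617F-sgZrsr2, and the series text describes loss of Zrsr2, which encodes a protein of the minor spliceosome that recognizes the end of minor-class introns. Cells were Lineage-, Sca1+ and Kit+ (LSK, the marrow fraction that holds stem and multipotent progenitor cells), positive for both GFP and mCherry, and were sorted at the last time point; neither the sex, the age nor the promoter behind either reporter is given in the sources used here.

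A host transcript serves its snoRNAs through its introns: each snoRNA is trimmed from a spliced-out intron, while the joined exons leave the nucleus. The exons of several hosts hold only short open reading frames, and once ribosomes engage them the transcript is degraded by nonsense-mediated decay, which is triggered when translation stops well upstream of an exon junction. Many of these genes start with a terminal oligopyrimidine tract, the element by which messages for ribosomal proteins are regulated by growth signals, and Gas5 was first known as a transcript that accumulates when growth stops. Steady-state RNA was measured in these libraries; decay itself was not.

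The start sites are shown first because the tract, where present, sits there. The windows run from 45 bases before to 25 after each RefSeq start on GRCm38.p6, and a C with at least 4 further C or T bases directly after it, beginning within 10 bases of the start on the transcribed strand, is in capitals.
Gas5, upstream start (chr1:161034556-161034625, plus strand): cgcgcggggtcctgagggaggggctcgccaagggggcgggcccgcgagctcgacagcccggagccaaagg
Gas5, downstream start (chr1:161035121-161035190, plus strand): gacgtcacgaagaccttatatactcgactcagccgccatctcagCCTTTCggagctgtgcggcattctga
Snhg1 (chr19:8723442-8723511, plus strand): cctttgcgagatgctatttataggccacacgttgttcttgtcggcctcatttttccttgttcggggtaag
Zfas1 (chr2:167062889-167062958, plus strand): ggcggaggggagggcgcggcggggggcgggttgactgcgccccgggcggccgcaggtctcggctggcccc
Snhg5 (chr9:88522873-88522942, minus strand): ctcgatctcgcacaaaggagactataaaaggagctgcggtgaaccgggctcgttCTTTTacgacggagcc
Snhg12 (chr4:132308633-132308702, plus strand): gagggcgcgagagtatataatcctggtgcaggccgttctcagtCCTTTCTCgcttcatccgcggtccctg
Snhg3 (chr4:132353662-132353731, minus strand): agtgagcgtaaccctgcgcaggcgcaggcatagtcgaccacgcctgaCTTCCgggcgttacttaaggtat
Such a run was found at 4 of the 7 starts annotated for the 6 genes, and at 30.7% of 32851 promoters searched the same way. It is CCTTTC at the downstream start of Gas5, CCTTTCTC in Snhg12, CTTTT in Snhg5 and CTTCC in Snhg3. Over the full 300 bases (250 before and 50 after a start), TATAAA on either strand was present in 3 of 7 (Snhg1, Snhg5 and Snhg3) and in 13.6% of all promoters. Position was not part of that count. Relative to the start the match lies at -23 in Snhg5 and at 22, downstream, in Snhg3, and that of Snhg1 is on the opposite strand. TATATA, which was not counted, lies at -29 from the downstream start of Gas5 and at -32 in Snhg12. CACGTG on either strand was in 0 of 7, against 7.15% of all. These are matches of letters in a window and were not tested as sites.

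The open frame nearest the cap decides where ribosomes would stop, so the frame from the first ATG is given for 1 spliced transcript of each gene (GENCODE M21, GRCm38), with start and stop codons in capitals.
Gas5: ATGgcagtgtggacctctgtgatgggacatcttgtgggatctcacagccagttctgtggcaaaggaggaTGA
Snhg1: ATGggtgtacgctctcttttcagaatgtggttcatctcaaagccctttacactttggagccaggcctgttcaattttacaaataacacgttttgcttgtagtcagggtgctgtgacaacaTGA
Zfas1: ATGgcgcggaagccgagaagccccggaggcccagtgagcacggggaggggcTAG
Snhg5: ATGaccaagTGA
Snhg12: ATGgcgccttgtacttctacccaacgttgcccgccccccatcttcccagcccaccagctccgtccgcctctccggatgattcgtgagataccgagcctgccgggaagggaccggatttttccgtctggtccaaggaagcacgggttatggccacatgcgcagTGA
Snhg3: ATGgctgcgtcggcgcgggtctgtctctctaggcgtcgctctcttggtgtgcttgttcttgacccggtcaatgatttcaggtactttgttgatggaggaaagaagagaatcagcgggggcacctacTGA
In the Gas5 model, of 12 exons and 502 bases, the frame has 23 codons and stops 315 bases before the last exon junction. The frame of Snhg1 (10 exons, 605 bases) has 40 codons and stops 220 bases before it. That of Zfas1 (5 exons, 738 bases) has 17 codons and stops 437 bases before it. In all 3 the stop therefore lies far upstream of the last junction, with 9, 6 and 4 junctions after it. Snhg5 (5 exons, 1004 bases) has the shortest frame, 3 codons, with 536 bases from stop to last junction, and Snhg12 (5 exons, 606 bases) has 54 codons and 213 bases. Snhg3 differs: its model has 3 exons and 437 bases, and its 42-codon frame stops 32 bases beyond the last junction, so no junction follows the stop.

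By the usual reading of 50 bases between a stop and the last junction, 5 of the 6 models have the arrangement that decay acts on. Over all spliced models of the 6 genes it was 22 of 28 (78.6%), and over other spliced non-coding models with an open frame 20068 of 27950 (71.8%). The feature is thus common among non-coding transcripts, and the models say nothing about which isoform was present. The annotation also lists 41 retained-intron models for these genes (20 for Gas5, 14 for Snhg1, 4 for Zfas1 and 3 for Snhg5), which counts per gene cannot separate from spliced RNA.

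The 6 genes hold 28 snoRNA genes in the table: 9 in Gas5, 8 in Snhg1, 4 in Snhg12, 3 in Zfas1 and 2 each in Snhg3 and Snhg5. All 28 lie within introns of the models above. C/D snoRNAs guide methylation of ribose in ribosomal and other RNAs, H/ACA snoRNAs guide pseudouridylation, and the U17 RNA encoded by Snora73a acts in cleavage of the ribosomal precursor. In the annotation 23 of the 28 are of the C/D kind, 18 of them with both a TGATGA and a CTGA at the places of the C and D boxes, and 5 are H/ACA, 4 of them with an ACA near the 3′ end. For each host 1 is shown (GENCODE M21, GRCm38), with those letters in capitals.
Snord47 of Gas5 (chr1:161038082-161038158, plus strand): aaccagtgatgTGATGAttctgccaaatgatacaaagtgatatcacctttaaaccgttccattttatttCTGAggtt
SNORD31 of Snhg1 (chr19:8725594-8725660, plus strand): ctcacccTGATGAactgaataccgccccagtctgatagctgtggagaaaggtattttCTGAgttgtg
Snord12 of Zfas1 (chr2:167065276-167065365, plus strand): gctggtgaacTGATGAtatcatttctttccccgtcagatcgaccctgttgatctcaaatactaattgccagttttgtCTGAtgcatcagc
Snord50a of Snhg5 (chr9:88521529-88521600, minus strand): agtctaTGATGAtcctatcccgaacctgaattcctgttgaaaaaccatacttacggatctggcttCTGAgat
Snord99 of Snhg12 (chr4:132310691-132310764, plus strand): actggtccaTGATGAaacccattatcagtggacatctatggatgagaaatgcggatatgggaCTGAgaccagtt
Snora73a of Snhg3 (chr4:132352775-132352979, minus strand): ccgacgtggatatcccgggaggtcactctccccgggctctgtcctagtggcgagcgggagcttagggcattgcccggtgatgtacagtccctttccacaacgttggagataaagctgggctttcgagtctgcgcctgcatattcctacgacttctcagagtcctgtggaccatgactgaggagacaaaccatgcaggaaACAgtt
The libraries counted almost none of these small RNAs. Of the 28 rows, 19 were at 0 in every library. Summed over the 9 libraries, the snoRNA rows of Gas5 held 5.84 expected counts beside 152946.16 for the host (0.00382%), those of Snhg1 2.12 beside 47970.88 (0.00442%) and those of Snhg12 16.6 beside 19559.4 (0.0849%). Those of Snhg5 and Zfas1 held 0. Snhg3 stands apart, with 206.2 counts on its snoRNA rows, 2.51% of the 8208.01 on the host. The polyA selection named in the labels keeps RNAs with a tail, so the results below are on the host transcripts and say nothing about levels of mature snoRNAs.

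**Figure D1:**
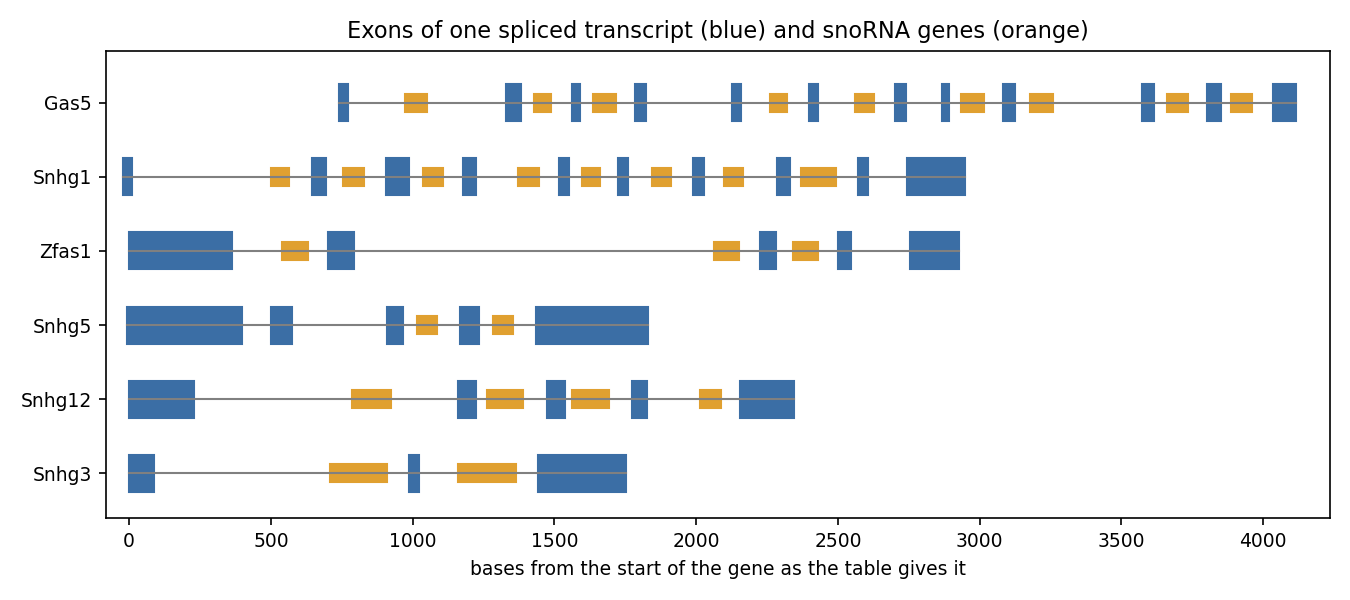
Exons of 1 spliced transcript (blue) and the snoRNA genes (orange) of each host, drawn to scale from the start of the gene in the expression table, in bases and in the direction of transcription. Each of the 28 snoRNA genes lies between exons; Gas5 carries 9 and Snhg3 and Snhg5 carry 2 each.

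The 9 libraries held 23238264 to 45585531 expected counts, and TMM factors ran from 0.894 (EV mouse 3) to 1.07 (sgZrsr2 mouse 3). Zrsr2 itself was measured at 50.6, 51.9, 62.2, 51.7 and 50.7 CPM (counts scaled to a common library size with TMM factors) in EV (mice 1 to 5), against 39.4, 44.4, 40.0 and 31.7 in sgZrsr2 (mice 1, 2, 3 and 5). These values do not overlap between groups, but the log2 fold change of -0.46 ± 0.12 (SE) did not pass adjustment over all genes (edgeR, p = 0.00321, adjusted p = 0.714; exact permutation p, two-sided, 0.0159, which is the floor for 5 against 4 mice). LSK markers were present in every library (Kit at 247 to 632 CPM, Ly6a at 14.8 to 49.3, Cd34 at 544 to 705); T-cell Cd3e reached at most 0.0873 CPM and neutrophil Ly6g 0.0556. EV mouse 5 and sgZrsr2 mice 3 and 5 stand apart: erythroid Car1 was 25.4, 39.3 and 35.5 CPM in them and at most 0.422 elsewhere, and Vwf, of megakaryocytes and part of the stem cells, was 53.2, 91.1 and 85.3 CPM and at most 11.4 elsewhere. By chi-square over genes, divided by its degrees of freedom, sgZrsr2 mice 1 and 2 were the most alike pair. The value was 9.56 between them, above sampling noise, and they were kept as 2 libraries. This measure rises with depth, and these 2 libraries have the lowest totals (23238264 and 25857723 expected counts), so it may overstate their likeness.

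No difference between sgZrsr2 and EV larger than the spread between mice was found for any of the 6 host transcripts. By edgeR, 0 of the 6 passed an adjusted p of 0.05, against 0% of the 14944 genes tested, and 0 of the 6 had an unadjusted p under 0.05, against 6.85% of all genes (2.98% lower and 3.87% higher with sgZrsr2). DESeq2 and limma-voom also called 0 of the 6, and 16 and 0 of all genes. By edgeR all 6 log2 fold changes were below 0, where 51.5% of all genes lie, and 5 were below -0.2, where 23.2% lie. The edgeR median was -0.33 for the 6 and -0.011 for all genes. With limma-voom and sample weights, Snhg3 (0.27) and Snhg12 (0.09) lay above 0, and the others between -0.15 (Snhg5) and -0.06 (Zfas1). The groups overlapped in each of the 6; they did not overlap in 3.06% of all genes, of which those lower with sgZrsr2 were 1.32% of the genes tested. The 6 rose and fell together from library to library, so their shared sign is not 6 separate observations.

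Gas5 is a host whose spliced RNA can bind the glucocorticoid receptor. It was measured at 520, 442, 672, 589 and 423 CPM in EV (mice 1 to 5), against 464, 460, 412 and 373 in sgZrsr2 (mice 1, 2, 3 and 5). EV mice 3 and 4 are high, sgZrsr2 mice 3 and 5 lie below every EV library, and the groups overlap through sgZrsr2 mice 1 and 2. Means were 529.2 ± 104 CPM (SD, n = 5) and 427.2 ± 43.5 (n = 4), a log2 fold change of -0.31 ± 0.15 (SE; 95% interval -0.64 to 0.02; edgeR p = 0.066, adjusted p = 0.714; exact permutation p = 0.127). Its row overlaps Zbtb37, a gene on the opposite strand, by 428 bases. Zbtb37 stood at 5.79 ± 0.954 CPM in EV and 8.76 ± 3.15 in sgZrsr2.

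Snhg1 was first described as the host of the U22 snoRNA. Its values were 154, 154, 220, 212 and 106 CPM in EV (mice 1 to 5), against 169, 168, 97.1 and 94.9 in sgZrsr2 (mice 1, 2, 3 and 5). In the sgZrsr2 group mice 1 and 2 lie above 3 of the 5 EV libraries, and mice 3 and 5 below all of them. The means of 169.3 ± 46.9 and 132.2 ± 41.8 CPM gave a log2 fold change of -0.36 ± 0.25 (95% interval -0.91 to 0.20; edgeR p = 0.183, adjusted p = 0.742; exact permutation p = 0.349). Without sgZrsr2 mouse 5 it was -0.23.

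Zfas1, named for its position antisense to the start of the zinc finger gene Znfx1, carries the Snord12 family. It was measured at 95.6, 81.6, 131, 131 and 76.1 CPM in EV (mice 1 to 5), against 91.5, 91.4, 76.5 and 64.4 in sgZrsr2 (mice 1, 2, 3 and 5). All 4 sgZrsr2 libraries lie below the EV median, and 3 of them within the EV range. The log2 fold change was -0.35 ± 0.19 (95% interval -0.77 to 0.07; edgeR p = 0.0958, adjusted p = 0.714; exact permutation p = 0.19), from means of 103.2 ± 26.6 and 80.94 ± 13.1 CPM. Znfx1, whose row overlaps that of Zfas1 by 82 bases, stood at 45.13 ± 5.3 CPM in EV and 53.68 ± 3.38 in sgZrsr2 (log2 fold change 0.25, edgeR p = 0.0442, adjusted p = 0.714, exact permutation p = 0.0476).

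Snhg5, the host of the U50 snoRNAs, had the lowest fitted change. Its values were 85.5, 86.5, 136, 125 and 61.8 CPM in EV (mice 1 to 5), against 90.8, 84.5, 49.9 and 62.2 in sgZrsr2 (mice 1, 2, 3 and 5). The same EV libraries, mice 3 and 4, are high, and only sgZrsr2 mouse 3 lies below the EV range. Means were 98.91 ± 30.7 and 71.87 ± 19.1 CPM, a log2 fold change of -0.46 ± 0.25 (95% interval -1.01 to 0.09; edgeR p = 0.09, adjusted p = 0.714; exact permutation p = 0.19).

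Snhg12, which carries Snord99 and 3 H/ACA genes, had the smallest change. It stood at 61.8, 56.1, 88.0, 75.0 and 51.1 CPM in EV (mice 1 to 5), against 79.0, 66.7, 46 and 44 in sgZrsr2 (mice 1, 2, 3 and 5). sgZrsr2 mouse 1 lies above 4 of the 5 EV libraries, while mice 3 and 5 lie below all of them. The log2 fold change was -0.17 ± 0.21 (95% interval -0.64 to 0.29; edgeR p = 0.43, adjusted p = 0.837; exact permutation p = 0.476), from means of 66.41 ± 15.0 and 58.93 ± 16.9 CPM. Single libraries moved it: it was -0.36 without sgZrsr2 mouse 1, and -0.06, -0.06 and -0.07 when EV mouse 3, sgZrsr2 mouse 5 and sgZrsr2 mouse 3 were left out in turn.

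Snhg3, the host of the U17 snoRNAs, was the most variable, with a highest value 4.86 times the lowest. It was measured at 17.8, 21.4, 36.9, 50.4 and 15.5 CPM in EV (mice 1 to 5), against 36.5, 35.9, 10.4 and 13.6 in sgZrsr2 (mice 1, 2, 3 and 5). Both groups hold high and low libraries, and sgZrsr2 mice 1 and 2 lie above 3 of the 5 EV libraries. Means of 28.4 ± 14.9 and 24.09 ± 14.0 CPM gave a log2 fold change of -0.24 ± 0.45 (95% interval -1.24 to 0.76; edgeR p = 0.606, adjusted p = 0.901; exact permutation p = 0.635). The sign is not settled by these libraries: leaving out EV mouse 4 gave a log2 fold change of 0.07, and leaving out sgZrsr2 mouse 3 gave 0.01.

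The counts of Snhg3 were also shared with other rows of the table. None of its 9 expected counts is whole, whereas Snhg5 and Zfas1 are whole in 9 of 9 libraries, Snhg1 in 7, Snhg12 in 6 and Gas5 in 5. Added to the rows of Gm17300, Snora73a and Snora73b of the same locus, the counts came to a whole number within 0.01 in 9 of 9 libraries, the pattern that is left when RSEM divides reads among rows. Gm17300 is annotated on the opposite strand, overlapping Snhg3 by 1611 bases, and whether the counting used strand is not given in the sources used here. The 4 rows taken as 1 gave a log2 fold change of -0.30, near the value for Snhg3 alone, and did not pass adjustment. Rcc1, a same-strand neighbour whose interval overlaps that of Snhg3 by 5592 bases, stood at 143.1 ± 29 CPM in EV and 111.4 ± 18.7 in sgZrsr2 (log2 fold change -0.36, edgeR p = 0.06, exact permutation p = 0.127).

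**Figure D2:**
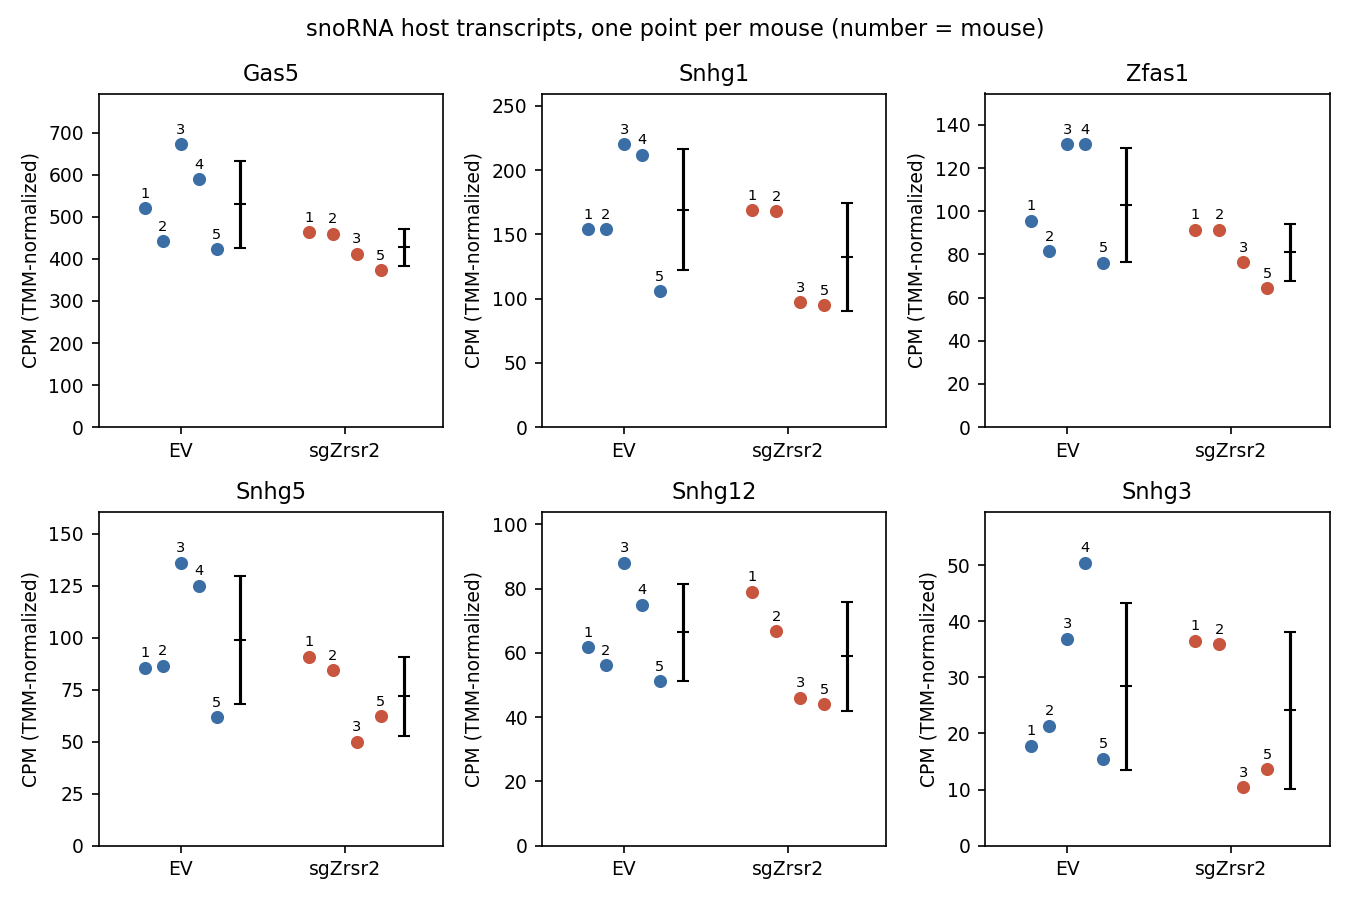
CPM (TMM-normalized) of the 6 host transcripts, 1 point per mouse with the mouse number above it; bars give mean ± SD of 5 EV and 4 sgZrsr2 mice. In every panel EV mice 3 and 4 are the highest EV libraries, EV mouse 5 is the lowest, and sgZrsr2 mice 3 and 5 lie below sgZrsr2 mice 1 and 2.

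The 6 transcripts moved together from library to library, within both groups. In 6 of 6, EV mice 3 and 4 lay above the other EV libraries, EV mouse 5 was the lowest EV library, and sgZrsr2 mice 3 and 5 lay below mice 1 and 2. The same order held in 6 of 6 when CPM was computed from library totals without TMM factors. The mean log2 CPM of the 6 was 6.57, 6.51, 7.16, 7.14 and 6.22 in EV (mice 1 to 5), against 6.80, 6.73, 6.02 and 6.05 in sgZrsr2 (mice 1, 2, 3 and 5). The spread of these means within each group exceeds the distance between the groups. Over the 9 libraries, which these genes share along with their depth, Pearson's r of each with the mean of the 6 was 0.90 for Gas5, 0.99 for Snhg1, 0.94 for Zfas1, 0.97 for Snhg5, 0.96 for Snhg12 and 0.94 for Snhg3, each value being part of that mean.

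**Figure D3:**
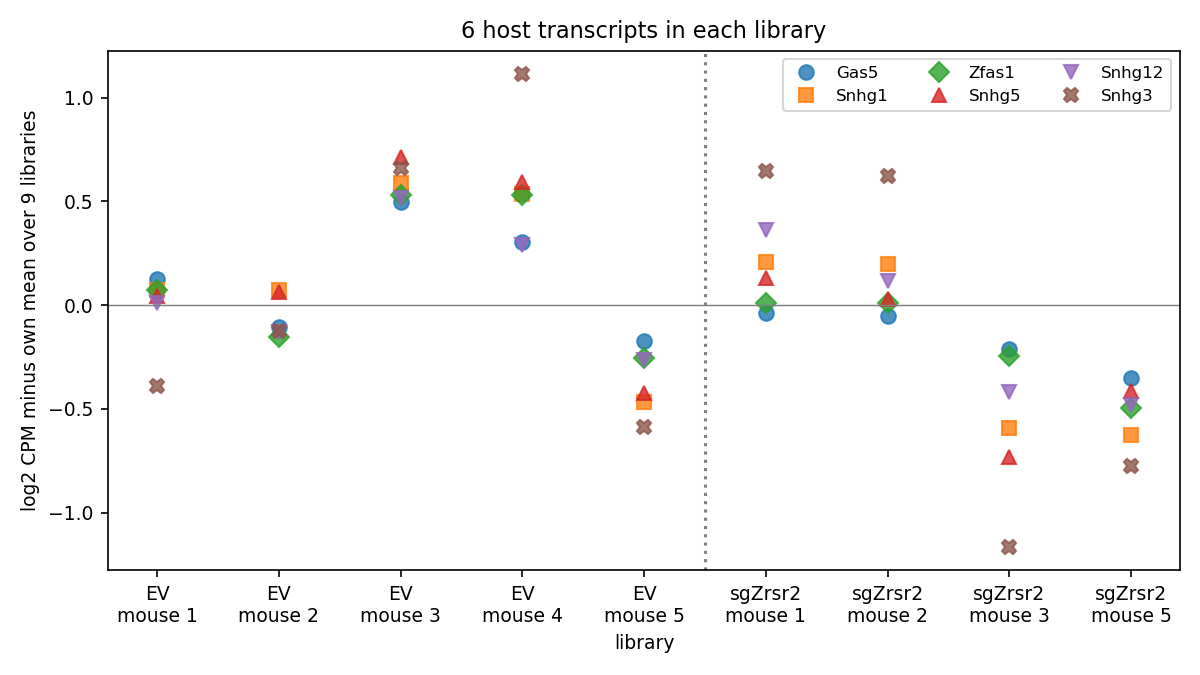
log2 CPM of each host transcript minus its own mean over the 9 libraries, by library; the dotted line divides EV from sgZrsr2. All 6 are above their mean in EV mice 3 and 4 and below it in 3 libraries, EV mouse 5 with mice 3 and 5 of sgZrsr2.

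The 3 libraries low for the hosts are those highest in Car1, Vwf and Pf4, though not in every marker of those lists. The 7 erythroid markers summed to 16.4 to 58.4 CPM in EV and 46.9 to 124 in sgZrsr2, and the 7 megakaryocyte markers to 154 to 337 and 250 to 533. Pf4, a platelet chemokine, was 22, 27.9 and 37.4 CPM in EV mouse 5 and sgZrsr2 mice 3 and 5 and at most 3.43 elsewhere. Globin Hbb-bt ran otherwise: it was highest in sgZrsr2 mice 1 and 2 (46.2 and 42.3 CPM) and lowest in sgZrsr2 mouse 5 and EV mouse 5 (5.59 and 8.06), and those 2 sgZrsr2 libraries had erythroid sums of 49 and 46.9 CPM, above the 16.4 to 22.5 of EV mice 1 to 4. Itga2b, the platelet integrin, was 263 CPM in EV mouse 4 and 199 in EV mouse 5. Of the neutrophil genes, S100a9 was 49.5 CPM in EV mouse 5 and 56.9 in sgZrsr2 mouse 3, and at most 13.7 elsewhere, and Ngp was 43 and 53.2 CPM in the same pair and at most 17.2 elsewhere. Of the markers tested, 6 of 6 erythroid genes (median log2 fold change 1.86) and 7 of 7 megakaryocyte genes (1.2) had values above 0 in sgZrsr2, and none had an unadjusted p under 0.05 by edgeR. The other marker lists had 5 of 8 LSK genes above 0 (median 0.02), 6 of 7 neutrophil and monocyte genes above 0 (0.17), 3 of 4 T and B genes below 0 (-0.67) and 7 of 10 proliferation genes below 0 (-0.11), also with 0 at an unadjusted p under 0.05. Mitochondrially encoded transcripts took 2.41%, 2.35% and 2.27% of counts in the same 3 libraries and 2.88% to 4.07% in the others. In bulk RNA, fewer cells of a type and less RNA per cell cannot be told apart, and the part of these markers in the host transcripts' values was not tested.

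Without those 3 libraries, a choice made after their markers were seen, 4 EV mice were compared with 2 sgZrsr2 mice. Log2 fold changes were then -0.26 for Gas5, -0.13 for Snhg1, -0.26 for Zfas1, -0.30 for Snhg5, 0.06 for Snhg12 and 0.20 for Snhg3. The count below 0 fell from 6 of 6 to 4 of 6, with a median of -0.19, beside a median of -0.032 and 53.7% below 0 for the 15323 genes then tested. In this reduced comparison 0 markers passed adjustment, but fitted marker changes remained. The erythroid median was 0.93, with 2 of 4 genes at an unadjusted p under 0.05 by edgeR, a share not given here for all genes. Of the neutrophil and monocyte genes, 7 of 7 were below 0 (median -0.91), and the megakaryocyte median was 0.02. All 6 of the hosts' 95% intervals include 0, the widest being that of Snhg3 (-0.71 to 1.10). The intervals over all libraries likewise leave room for a fall in Snhg5 of up to 1.01 on the log2 scale and a rise of 0.09.

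**Figure D4:**
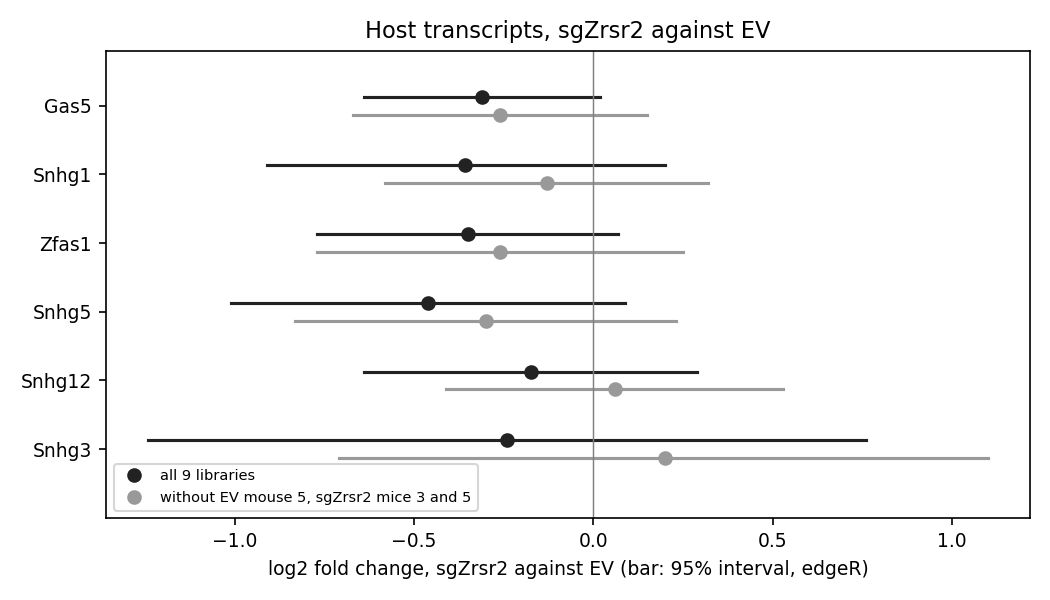
Log2 fold change, sgZrsr2 against EV, of each host transcript with its 95% interval from edgeR, over all 9 libraries (black) and without EV mouse 5 and sgZrsr2 mice 3 and 5 (grey). Every interval crosses 0; Snhg12 and Snhg3 lie below 0 in black (-0.17 and -0.24) and above it in grey (0.06 and 0.20).

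Compared per length, the hosts kept a steady order of level. As CPM per kilobase of the spliced model, lowest, median and highest over the 9 libraries were 743, 916 and 1339 for Gas5 and 157, 255 and 364 for Snhg1. They were 87.3, 124 and 178 for Zfas1 and 72.6, 102 and 145 for Snhg12. Those of Snhg5 were 49.7, 85.2 and 135, and those of Snhg3 23.8, 49 and 115. Gas5 lay above Snhg1, and Snhg1 above Zfas1, in 9 of 9 libraries. Zfas1 lay above Snhg12, and Snhg12 above Snhg5, in 8 of 9, and Snhg5 above Snhg3 in 9 of 9. The lower neighbours are within each other's range over libraries, and the order rests on the model chosen for each gene, since length enters it.

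The genes most like the mean of the 6, among 9624 others with at least 10 CPM, were protein-coding: Rpl10a and Rpl18, of the large ribosomal subunit, Emc7, of a membrane insertion complex, Rpp30, a subunit of RNase P, and Iscu, the scaffold for iron-sulfur clusters. Pearson's r over the 9 libraries was 0.99 for Rpl10a and Emc7 and 0.98 for Rpp30, Rpl18 and Iscu. Their log2 fold changes were -0.11, -0.21, -0.40, -0.14 and -0.15, in the order Rpl10a, Emc7, Rpp30, Rpl18 and Iscu. The choice depends on the members: against the mean of Gas5, Snhg3 and Snhg12 alone, Emc7 ranked 2, Iscu 6, Rpp30 18, Rpl10a 66 and Rpl18 76.

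Among 15 further hosts of the Snhg family and related non-coding hosts, 9 were matched (2 by symbol and 7 by Ensembl identifier) and 4 passed the filter. With sgZrsr2, 3 had log2 fold changes below 0 and 1 above, with a median of -0.05, and 0 passed adjustment. Epb41l4aos was the lowest, at 16.34 ± 4.06 CPM in EV and 14.51 ± 1.57 in sgZrsr2 (-0.17). Snhg20 was the highest, at 8.18, 9.11, 6.86, 11.3 and 11.3 CPM in EV and 10.7, 12, 16.6 and 12.9 in sgZrsr2 (log2 fold change 0.48 ± 0.20, edgeR p = 0.0379, adjusted p = 0.714, exact permutation p = 0.0476). Its sgZrsr2 mouse 3, the library where Snhg3 and Snhg5 are lowest, is where Snhg20 is highest.

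The factors of nonsense-mediated decay divided evenly. Of 25 genes, 12 were below 0 and 13 above, the median was 0.02, and 0 passed adjustment. Magohb, a core protein of the exon junction complex, had the lowest value, at 15.88 ± 3.86 CPM in EV and 11.79 ± 2.97 in sgZrsr2 (-0.43, edgeR p = 0.0861, exact permutation p = 0.143). Smg6, the endonuclease of the pathway, had the highest, at 100.9 ± 11.2 and 118.6 ± 7.76 CPM (0.23, edgeR p = 0.056, exact permutation p = 0.0159). By edgeR, 1 of the 25 had an unadjusted p under 0.05, against 6.85% of all genes. That was Casc3, a shell protein of the exon junction complex, at 102 ± 5.04 and 118.1 ± 4.41 CPM (0.21, edgeR p = 0.0318, adjusted p = 0.714, exact permutation p = 0.0159). The groups did not overlap for Smg6 and Casc3, as for 3.06% of all genes.

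Protein-coding transcripts known to be limited by the same decay lay lower more often than higher. Of 18, 15 had log2 fold changes below 0 (51.5% of all genes did), and the median was -0.26. Their summed CPM was 4665, 4687, 7324, 5042 and 4053 in EV (mice 1 to 5), against 5010, 5021, 3655 and 3859 in sgZrsr2 (mice 1, 2, 3 and 5). By this sum EV mice 3 and 4 were the highest libraries and sgZrsr2 mice 3 and 5 the lowest, as for the mean of the hosts. A sum follows its most abundant genes, and the order was not compared gene by gene. The 18 share the same libraries, so they cannot be counted as separate observations. By edgeR, 2 had an unadjusted p under 0.05 (2.98% of all genes did so on the lower side) and 0 passed adjustment. Both are splicing regulators with a poison exon. Tra2b stood at 470, 491, 524, 410 and 309 CPM in EV and 358, 353, 267 and 276 in sgZrsr2 (-0.49 ± 0.17, edgeR p = 0.0136, adjusted p = 0.714, exact permutation p = 0.0476), so the groups overlap only through EV mouse 5. Srsf7 stood at 285, 279, 345, 307 and 254 CPM in EV and 252, 241, 223 and 238 in sgZrsr2 (-0.30 ± 0.11, edgeR p = 0.0183, adjusted p = 0.714, exact permutation p = 0.0159), with no overlap. The extremes of the list were the stress gene Gadd45b, with 13.1 to 224 CPM in EV and 15.1 to 51.3 in sgZrsr2 (-1.41, edgeR p = 0.0688, exact permutation p = 0.302), and Ptbp2, a splicing repressor, with 27.7 to 59.0 and 28.4 to 73.1 CPM (0.39).

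The proteins that bind and assemble snoRNAs all had values below 0, 16 of 16, with a median of -0.32, where 51.5% of all genes lie below 0. By edgeR, 2 of the 16 had an unadjusted p under 0.05 (2.98% of all genes did so on the lower side) and 0 passed adjustment. Gar1, a core protein of H/ACA particles, stood at 50.5, 52.6, 68.5, 78.6 and 51.1 CPM in EV and 44.1, 48.6, 37.2 and 49.4 in sgZrsr2, without overlap (-0.43 ± 0.16, edgeR p = 0.022, adjusted p = 0.714, exact permutation p = 0.0159). Znhit6, an assembly factor of C/D particles, stood at 25.38 ± 3.99 and 18.84 ± 2.85 CPM (-0.43, edgeR p = 0.0227, adjusted p = 0.714, exact permutation p = 0.0317). Nop58, a core C/D protein, had the lowest value, -0.48 (edgeR p = 0.131, exact permutation p = 0.27), and Znhit3, also an assembly factor, the highest, -0.03. The summed CPM of the 16 was 1951, 2032, 3322, 2945 and 2063 in EV (mice 1 to 5), against 2131, 2153, 1409 and 1882 in sgZrsr2 (mice 1, 2, 3 and 5). EV mice 3 and 4 are again the highest libraries and sgZrsr2 mice 3 and 5 the lowest, as for the hosts, so the 16 are not separate observations either.

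Translation factors of the terminal oligopyrimidine class lay slightly lower. Of 17, 16 were below 0, with a median of only -0.08, and 0 had an unadjusted p under 0.05 or passed adjustment. Eef1d, a subunit of elongation factor eEF1, had the lowest value (-0.25) and Eif3f, of initiation factor eIF3, the highest (0.01). Without EV mouse 5 and sgZrsr2 mice 3 and 5, 3 of 17 were below 0, with a median of 0.09. Under the same reduction 13 of 18 of the decay-limited transcripts (median -0.29), 14 of 16 of the snoRNA proteins (-0.23), 10 of 25 of the decay factors (0.03) and 3 of 6 of the other Snhg hosts (-0.11) were below 0, and 0 in any of these lists passed adjustment.

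Other genes whose interval holds a snoRNA gene on the same strand, most of them protein-coding hosts, numbered 283 in the table, of which 235 were tested. With sgZrsr2, 143 had values below 0 and 92 above, with a median of -0.07. Unadjusted p was under 0.05 for 6 lower and 8 higher of the 235 genes, smaller shares than the 2.98% and 3.87% of all genes, and 0 passed adjustment. The genes named next are the extremes of the list by its naming rule and do not set it apart. The list shares 4 tested genes with the Snhg hosts, 3 with the snoRNA proteins and 5 with the translation factors. Hspa8, the constitutive chaperone, stood at 3580 ± 526 CPM in EV and 2798 ± 246 in sgZrsr2 (-0.36, edgeR p = 0.0199, exact permutation p = 0.0476). Rnf180, a ubiquitin ligase, stood at 5.5 to 6.14 CPM in EV and 7.6 to 11.0 in sgZrsr2, without overlap (0.71, edgeR p = 0.00203, exact permutation p = 0.0159). Casp2, a caspase, was 115.5 ± 14.2 and 151 ± 2.56 CPM (0.39, exact permutation p = 0.0159) and Kif13a, a kinesin, 69.85 ± 3.45 and 83.91 ± 3.92 (0.26, exact permutation p = 0.0159), both without overlap. Rc3h2, an RNA-binding ubiquitin ligase (0.62, exact permutation p = 0.0476), and Dcaf5 (0.41, exact permutation p = 0.0952) were also higher in the sgZrsr2 means, with overlapping groups. All of these had an adjusted p of 0.714 by edgeR. The extremes of the list, Pir (-0.97) and Samd12 (1.49), were measured at under 2 CPM in every library.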

How the data were processed

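RNA-seq libraries of sorted LSK cells were made from 5 ng of total RNA with polyA selection, a NEBNext Ultra II kit and PCR without molecular identifiers, per the labels' protocols. The deposited values are RSEM expected counts per gene, 1 column per sample; RSEM 1.2.30, cutadapt 1.11 and GRCm38 are named in the submitters' processing notes. The aligner, the annotation release and the use of strand are not given in the sources used here. RSEM divides reads that match several genes, so between 9.78% and 13.3% of a library's values are not whole.

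The expected counts as deposited were rounded, filtered with filterByExpr (minimum count 10, minimum total 15; 99.93% of counts kept) and scaled with TMM factors. sgZrsr2 was compared with EV in edgeR 4.0.16 (R 4.3.3; estimateDisp, glmQLFit, glmQLFTest) on all 9 libraries, with Benjamini-Hochberg adjustment over 14944 genes and a threshold of 0.05. The standard error is the log2 fold change over the square root of F, and intervals are 95%. For single genes an exact permutation test, two-sided, ran over the 126 splits into 5 and 4. The titles number the animals and nothing else says that the samples are separate cultures or litters, so p-values measure the spread between these samples. Depth limits the precision of genes with few counts. The script was tested on simulated data.

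The host transcripts and all comparison and marker lists were chosen with earlier results of these data known. Named from each comparison list were the genes of lowest and highest log2 fold change and up to 6 of smallest p under 0.05; the 5 genes most like the mean of the hosts were ranked by Pearson's r. Gene models and snoRNA sequences are from GENCODE M21, promoters from RefSeq (GRCm38.p6); of the identifiers in the table, 95.1% are in GENCODE M21. Alternatives were other scalings, filters, tests and rounding, a replicate block, averaging sgZrsr2 mice 1 and 2, leaving out each library, and, chosen after seeing the data, leaving out 3 libraries together, library totals alone and Snhg3 summed with its locus. Introns were not searched for minor-class splice sites, because a genome sequence was not used here.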

Additional observations from a re-analysis of the deposited data

Results flagged for a closer look

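In 2 of 22 sets of 4 or 5 libraries, 1 library lay far from the rest, where chance gives about 1.1. Zrsr2 in EV mouse 3 was 62.2 CPM, with the other 4 EV libraries between 50.6 and 51.9, a gap of 0.883 of the group's range. Rcc1, the same-strand neighbour of Snhg3, was 83.5 CPM in sgZrsr2 mouse 3, with the other 3 sgZrsr2 libraries between 118 and 122, a gap of 0.880 of the range.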

How the results depend on the processing

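The count of host transcripts past the adjusted threshold was 0 under all 12 alternatives and without each of the 9 libraries. Over all genes the count was 16 with DESeq2 and 1 with sgZrsr2 mice 1 and 2 averaged, none of them a host transcript, and 0 under the other alternatives and in the range of 0 to 0 on leaving out each library. Gas5 (-0.36 to -0.10), Snhg1 (-0.50 to -0.07), Snhg5 (-0.58 to -0.15) and Zfas1 (-0.42 to -0.06) kept a log2 fold change below 0 under the 12 alternatives and without each library. Leaving out each library in turn gave ranges of -0.38 to -0.22 for Gas5, -0.51 to -0.23 for Snhg1, -0.60 to -0.32 for Snhg5, -0.44 to -0.25 for Zfas1 and -0.36 to -0.06 for Snhg12. Snhg3 turned to 0.27 with limma-voom and sample weights, to 0.066 without EV mouse 4 (from -0.525 without sgZrsr2 mouse 1), to 0.011 without sgZrsr2 mouse 3 and to 0.20 without EV mouse 5 and sgZrsr2 mice 3 and 5. Snhg12 turned to 0.093 with limma-voom and to 0.059 without those 3 libraries. The cause of these turns was not tested. By edgeR, unadjusted p fell below 0.05 for Gas5 with upper-quartile factors (0.0454) and with library totals alone (0.0388). It did so too without EV mouse 2 (0.0432) and without EV mouse 5 (0.0285). Without EV mouse 5 it was also below 0.05 for Snhg5 (0.0255) and Zfas1 (0.0389). The share of all genes under 0.05 in these settings is not given here, and over all 9 libraries it was 6.85% by edgeR. These unadjusted p-values therefore do not set the hosts apart from other genes. Adjusted p of the 6 ranged from 0.608 to 1 over the alternatives that do not leave out 1 library. Without EV mouse 5 it ran from 0.542 (Gas5 and Snhg5) to 0.784 (Snhg3) by edgeR. Zrsr2 stayed between -0.54 and -0.36, with adjusted p from 0.139 to 1 over the alternatives.

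The deviations of same-numbered mice from their group means correlated at -0.23, -0.09, -0.40 and 0.37 for mice 1, 2, 3 and 5. Of these, 1 of 4, mouse 5, matched its own number best. After sgZrsr2 mice 1 and 2, the most alike pairs were EV mice 1 and 2 (chi-square per degree of freedom 16.8) and mouse 5 of EV and sgZrsr2 (30.4). These values rise with depth, so pairs of unlike depth are not strictly comparable. With only 4 values, whether the numbers pair the samples cannot be settled. With the mouse number as a replicate block, 0 genes passed, and log2 fold changes were -0.25 for Gas5, -0.27 for Snhg1, -0.02 for Snhg3, -0.33 for Snhg5, -0.13 for Snhg12 and -0.23 for Zfas1. Snhg3 had as few as 426 counts in a library, divided among overlapping rows. Its spread between mice was wide, with an SD of 52.3% of the mean in EV and 58.3% in sgZrsr2.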
